A study of Tulipa gesneriana with 15 samples.

Results

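Of 76388 genes in an expression table of garden tulip (Tulipa gesneriana) flowers, 150 are described here, those whose level peaked most sharply in early senescence and was lower both before and after it. They were chosen by their measured values. Each stage was given the mean of log2(FPKM + 1) over its 3 libraries, where FPKM is a fragment count scaled by the length of the feature and the size of the library. A gene needed a mean of 5 FPKM or more in early senescence, which 18998 genes reached. Its score was the early senescence value minus the highest of the other 4 stage values, and the 150 highest scores were taken. The peak itself is therefore a description and not a finding. The table pairs its identifiers with no gene name, position or function, so no role is given for any gene, and neither the stage nor the floral organs could be checked against marker genes.

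The libraries came from whole flowers labelled wild type, with no treatment given, at 5 stages, which ran from buds through partial blooming and full blooming to early senescence and then to late senescence. Each stage had 3 libraries, 15 in all. Petals are what the title speaks of, but a whole flower holds tepals, stamens, pistil and receptacle, so fewer cells of an organ and less RNA per cell cannot be told apart. Whether each library was made from its own plant is not labelled, so p-values measure the spread between libraries only, and that spread may be technical.

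Flower senescence is an ordered process in which the cells of the tepals break down proteins, lipids, nucleic acids and organelles, and the products are moved to other parts of the plant before the cells die. It involves new transcription, including that of transcription factors, proteases, nucleases and autophagy genes, and in many monocots, tulip among them, its course depends little on ethylene. A transcript that is high only while the first visible signs appear has a different course from one that stays high until the flower is dead, and the genes described here are of the first kind by choice.

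Sums of FPKM ran from 861035 to 1094997 per library, and 35738 to 42158 genes reached 1 FPKM. The number of reads behind each library is unknown, so no counting error can be given. Some libraries were less like the others of their stage. Full blooming replicate 3 correlated at 0.89 and 0.87 with the other libraries of its stage, which correlated at 0.96 with each other (Pearson, across the 47326 genes tested, which are not independent). Late senescence replicate 2 correlated at 0.935 and 0.935 with the other late libraries, which correlated at 0.959 with each other. Buds replicate 2 was about as close to the other buds (0.921 and 0.919) as those were to each other (0.925), but its mean correlation with late senescence was 0.73, against 0.67 and 0.70 for the other buds. The 3 early senescence libraries correlated at 0.96 to 0.97 with each other.

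Among the 150 genes the score ran from 1.22 to 4.52 on the log2 scale, with a median of 1.53 and quartiles of 1.36 and 1.74. High scores were few: 80 genes reached 1.5, 22 reached 2, 7 reached 2.5 and 3 reached 4. The limit of the list falls where scores lie close together. Just inside it, F01.PB33004 scored 1.220 and F01.PB33581 scored 1.220. Just outside it, F01.PB34793 scored 1.218 and F01.PB26619 scored 1.215. Of all genes with enough expression in early senescence, 4342 had a score above 0 and 239 had a score of 1 or more, so the 150 are the steep end of a continuous range.

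The levels at the peak spanned more than 2 orders of magnitude, with means of 5.03 to 1364 FPKM. The median of the mean levels was 2.80 FPKM in buds, 5.42 at partial and 6.15 at full blooming, 26.9 at the early senescence peak and 4.76 in late senescence. Together the genes held 0.160% ± 0.0204 of the summed FPKM in buds (SD, n = 3), 0.315% ± 0.0138 in partial blooming and 0.343% ± 0.0446 in full blooming. Early senescence had 1.52% ± 0.0295, and late senescence had 0.343% ± 0.0648. The share was 1.53%, 1.48% and 1.53% in the early senescence libraries and at most 0.397% in any of the other 12. These shares show the weight of the set and follow from how it was chosen.

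**Figure D1:**
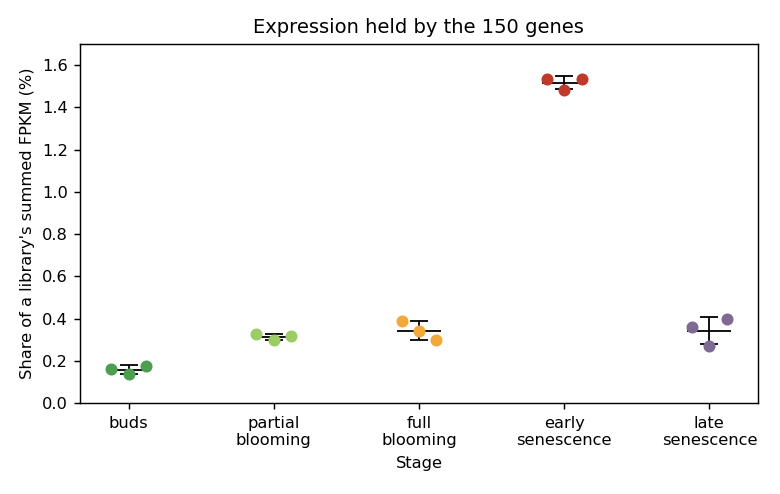
Percent of each library's summed FPKM held by the 150 genes, by stage; points are libraries, the line is the mean of 3 and the bars are 1 SD. The 3 early senescence libraries sit between 1.48% and 1.53%, and the 12 others between 0.138% and 0.397%.

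The 2 genes with the highest mean level in early senescence are given first. F01.PB5396 had 143, 131 and 73.7 FPKM in buds, 154, 159 and 162 in partial blooming, 236, 225 and 188 in full blooming, 1457, 1489 and 1148 at the early senescence peak and 498, 475 and 472 in late senescence. F01.PB687 had 127, 168 and 198 FPKM in buds, 259.6, 194 and 209 in partial blooming, 369.96, 409.6 and 331 in full blooming, 1100.01, 990.06 and 1076 at the early senescence peak and 509.5, 313 and 502 in late senescence. In both, every early senescence library lay above all 12 others, and full blooming was above partial blooming in all libraries.

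The highest scores belonged to genes listed at 0 in many other libraries. F01.PB25197 was at 80.3, 77.8 and 44.1 FPKM in early senescence and was listed at 0 in 9 of the other libraries. It was at 6.47 in partial blooming replicate 2, at 4.57 in full blooming replicate 3 and at 23.0 in late senescence replicate 3. F01.PB57296 was at 39.5, 7.32 and 28.8 FPKM in early senescence and at 0.01 or 0 in every other library. It was the 1 gene of the 150 at 1 FPKM or more in all early senescence libraries and under 0.1 in all 12 others. F01.PB5479, the highest score among genes with buds as second stage, was at 97.95, 87.2 and 44.4 FPKM in early senescence, at 10.1, 4.51 and 7.27 in buds, and at 0, 0 and 18.95 in late senescence. An exact 0 may also be an estimate that failed, so these genes are described only as listed at 0.

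The stage next in level divided the genes into 4 groups, which again is a description. Late senescence was second for 57 genes, full blooming for 42, partial blooming for 39 and buds for 12. Buds were second for 8.0% of the 150 and for 7.97% of the 4342 genes with a score above 0. Late senescence was second for 38.0% of the 150 and for 45.1% of the 4342. Partial blooming was second for 26.0% of the 150 and for 15.5% of the 4342. In the group with late senescence second, the median stage levels were 1.75 FPKM in buds, 3.85 at partial and 4.61 at full blooming, 32.6 at the early senescence peak and 10.5 in late senescence. In the group with full blooming second they were 2.33, 6.77, 10.2, 27.5 and 2.73 FPKM in the same order of stages. In that with partial blooming second they were 3.91, 7.78, 6.77, 26.9 and 3.96 FPKM.

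**Figure D2:**
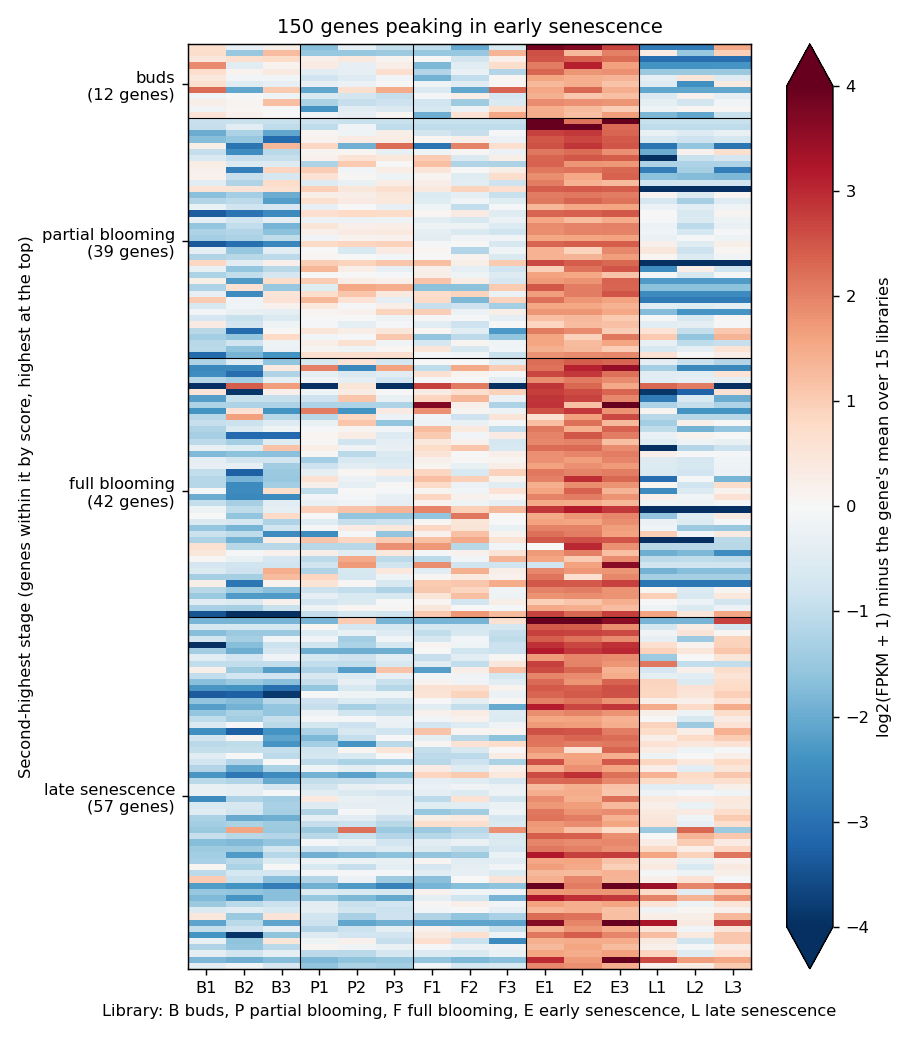
log2(FPKM + 1) of the 150 genes minus each gene's mean over the 15 libraries, with genes in rows, grouped by their second-highest stage, and libraries in columns in the order of the stages. Early senescence is the red block of columns in all 4 groups of 57, 42, 39 and 12 genes, and dark blue cells in late senescence mark genes listed at or near 0 there.

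All 3 early senescence libraries lay above all 12 others in 128 of the 150 genes, against 7.15% of the 18998 genes with a mean of 5 FPKM or more in early senescence. The rule favours this, so nothing is read from the difference. The 3 libraries spanned less than 1 log2 unit in 126 genes and 1 or more in 24, and 16 of the 22 genes that overlapped with another stage were among these 24. The median coefficient of variation over the 3 libraries was 15.1% in the 150 genes and 11.9% in the other genes with enough expression. Early senescence replicate 3 was the lowest of its stage in 72 of the 150 genes (48.0%), and in 39.7% of the other genes. F01.PB28452 had the widest span, at 0, 4.35 and 20.6 FPKM in early senescence, and was singled out after its values were seen.

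The peak was looked at again in libraries that the choice had not used. The 150 genes were chosen anew without 1 early senescence library, and the score was then computed from that library alone. Without replicate 1, the median score was 1.54 in the left-out library, against 1.57 in the libraries used. For replicate 2 these medians were 1.54 and 1.59, and for replicate 3 they were 1.35 and 1.61. The score in the left-out library was above 0 in 137 of 150 genes for replicate 1, in 124 for replicate 2 and in 143 for replicate 3. How often this holds over all 18998 genes with enough expression was not computed. The left-out library exceeded all 12 libraries of other stages in 126, 106 and 128 of these genes. Over all 18998 genes with enough expression, an early senescence library exceeded those 12 in 13.7% of genes for replicate 1, 13.6% for replicate 2 and 12.3% for replicate 3. The other stages were the same libraries in both steps, so only the early senescence side of the score was new. Low values in those other stages had been favoured by the choice.

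**Figure D3:**
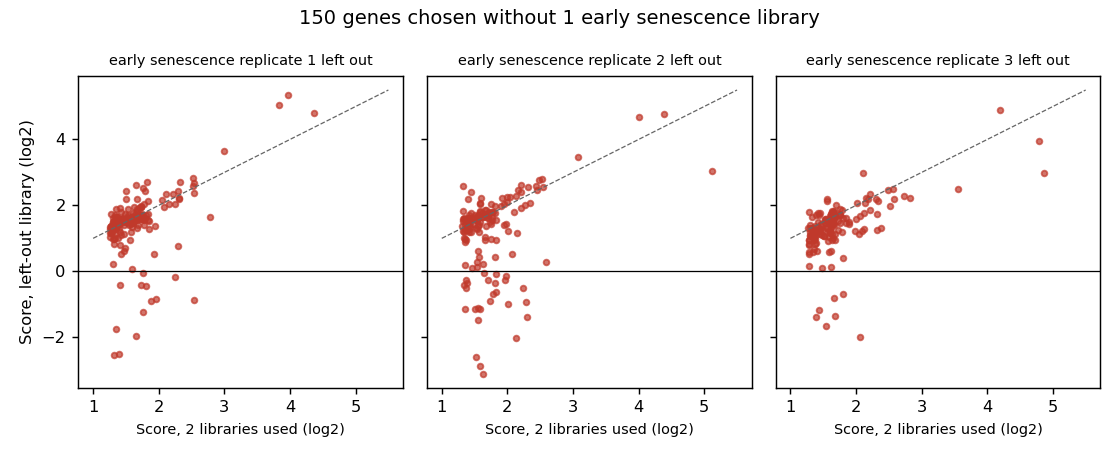
Score of 150 genes chosen without 1 early senescence library: x axis, score from the 2 libraries used; y axis, score from the left-out library alone (both log2 units); dashed line, equal values. Most points lie near the line, with medians of 1.54, 1.54 and 1.35 in the left-out libraries, and points under 0 are genes with no peak in the left-out library.

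Whether the genes also changed between other stages was tested in 4 comparisons of stages other than early senescence. The fit behind the tests covered all 15 libraries, so the spread it used includes that of the early senescence libraries. The rule bounds the other stages from above and does not fix the sign of their differences. It does limit their size, since the scores put every other stage 1.22 log2 units or more under early senescence. Genes that stay high in late senescence are thereby left out. The rule also used these libraries, so the counts below describe the set. Tests were run by limma on log2(FPKM + 1), adjusted over all 47326 genes with 1 FPKM or more in at least 3 libraries, and a gene was called at an adjusted p under 0.05. All 150 genes were among those tested, but early senescence alone can carry a gene past that filter. In the comparison at hand, 1 FPKM or more in at least 3 of the 6 libraries was reached by 121 genes for partial blooming against buds and by 129 for full against partial blooming. It was reached by 131 for late senescence against full blooming and by 127 for late senescence against buds.

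On opening, many of the genes rose before their peak. In partial blooming against buds, 41 of the 150 genes were higher (27.3%), against 6.62% of all genes tested, and 2 were lower, against 7.69%. Among the 18998 genes with enough expression in early senescence, a background chosen after the counts were seen, 12.7% were higher and 7.82% lower. The 2 stages differed by a median of 0.52 log2 units over the 150 genes and -0.13 over all genes tested. Without buds replicate 2, 29 of the 150 genes were higher and 2 lower. Over all genes tested, 2254 were then higher and 1706 lower, against 3131 and 3639 with it. The 41 genes had a median change of 1.62, and in all of them the libraries of the 2 stages did not overlap. How often this holds among all genes called higher was not computed, so it adds nothing to the calls. Their median level was 2.69 FPKM in buds, 15.3 at partial and 18.6 at full blooming, 65.2 at the early senescence peak and 17.8 in late senescence. In all 41, every early senescence library also lay above all 12 others, as in 128 of the 150 genes, which the rule favours.

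F01.PB25881 had the largest rise on opening. It was at 97.7, 104 and 108 FPKM in partial blooming, against 4.70, 6.15 and 8.44 in buds, a log2 change of 3.84 ± 0.23 (SE; limma adjusted p of 2.20e-07). Full blooming libraries had 55.3, 56.1 and 36.2 FPKM, followed by 289, 308 and 309 at the early senescence peak and 65.7, 40.6 and 67.6 in late senescence. Its stage means thus had a first maximum on opening and a higher one in early senescence. F01.PB30835 was at 59.4, 65.3 and 62.8 FPKM in partial blooming, against 2.76, 3.93 and 5.53 in buds (log2 change 3.68 ± 0.24, SE; limma adjusted p of 5.31e-07). Its 3 libraries of full blooming, at 39.1, 46.7 and 26.1 FPKM, lay under those of partial blooming as well, but this difference did not pass the test (limma adjusted p of 0.163). It was at 192, 197 and 211 FPKM in early senescence and at 37.2, 24.2 and 40.1 in late senescence.

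The 2 genes that fell on opening were lower by 1 to 2 log2 units. F01.PB9031 was at 2.21, 3.01 and 3.30 FPKM in partial blooming, against 8.09, 7.16 and 16.6 in buds (log2 change -1.52 ± 0.29, SE; limma adjusted p of 0.00412). F01.PB33581 was at 16.0, 19.96 and 18.5 FPKM in partial blooming, against 38.6, 45.2 and 31.6 in buds (log2 change -1.03 ± 0.24, SE; limma adjusted p of 0.0121). That call was lost without buds replicate 2 (limma adjusted p of 0.0558) and without partial blooming replicate 1 (limma adjusted p of 0.0554). At the peak F01.PB9031 had 27.5, 25.9 and 24.7 FPKM, and F01.PB33581 had 188, 177 and 137 FPKM.

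In full against partial blooming 7 of the 150 genes were higher (4.67%), against 0.980% of all genes tested, and 4 were lower (2.67%), against 0.699%. Among the genes with enough expression in early senescence, 1.92% were higher and 0.811% lower. At an unadjusted p under 0.05, 24 of the 150 were higher and 13 lower. The share of all genes tested at that limit was not computed. Nothing is therefore read from counts at an unadjusted p, here or below. The counts of calls turned on single libraries and on the scaling. Without full blooming replicate 3, which stands apart, 14 were higher and 5 lower. Over all 47326 genes tested, 1113 were then higher and 1730 lower, against 464 and 331 with it. The calls thus grew over all genes as well, most of all the lower ones. With median-ratio scaling, 7 of the 150 genes were higher and 0 lower by limma, with 11 lower at an unadjusted p under 0.05. Over all genes tested, that scaling gave 465 higher and 240 lower by limma. Other libraries whose absence moved these counts are given further on.

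The 2 called genes with the largest rise from partial to full blooming were under 2 FPKM in all buds libraries. F01.PB11207 was at 12.3, 13.9 and 8.64 FPKM in full blooming, against 0.98, 0.66 and 1.34 in partial blooming (log2 change 2.65 ± 0.24, SE; limma adjusted p of 9.38e-05). It was at 43.7, 54.3 and 32.7 FPKM in early senescence and at 18.1, 11.6 and 14.5 in late senescence. F01.PB681 was at 63.4, 102 and 73.4 FPKM in full blooming, against 15.4, 18.04 and 17.2 in partial blooming (log2 change 2.14 ± 0.37, SE; limma adjusted p of 0.00945). It was at 1.83, 0 and 0.24 FPKM in buds and at 199, 150.3 and 207 in early senescence, so its stage means went up at each step to the peak. Its call in full against partial blooming was lost with a pseudocount of 0.1 (limma adjusted p of 0.205), without partial blooming replicate 1 (0.0503) and without full blooming replicate 2 (0.0608).

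Among the genes that fell between these stages, some had a low point before the peak. F01.PB20833 was at 19.5, 21.3 and 14.1 FPKM in full blooming, against 51.1, 36.1 and 44.6 in partial blooming (log2 change -1.22 ± 0.20, SE; limma adjusted p of 0.00759), and then at 113, 115 and 101 in early senescence. Its call was lost with median-ratio scaling (limma adjusted p of 0.0624) and in a fit on the 2 stages alone (limma adjusted p of 0.105). F01.PB25881, described above, was also lower in full than in partial blooming (log2 change -1.08 ± 0.23, SE; limma adjusted p of 0.0310). Over 24 alternatives the adjusted p of this last change ran from 0.0016 to 0.124, and the call was lost in 11 of them.

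After the peak, calls against full blooming went both ways and were not more frequent than among all genes with enough expression in early senescence. In late senescence against full blooming, 19 of the 150 were higher (12.7%), against 22.0% of all genes tested. Lower were 22 (14.7%), close to the 13.4% of all genes tested. Among the genes with enough expression in early senescence, 25.8% were higher and 21.9% lower, more than in the 150 both ways. The rule bounds both stages from above and leaves out genes that stay high in late senescence. Its part in these shares was not tested, so nothing is read from them. The median change was 0.00 over the 150 genes and 0.15 over all genes tested. Scaling moved that of all genes to 0.03 (median-ratio) and to -0.07 (quantile normalization), with 17 higher and 25 lower, and 17 higher and 28 lower, among the 150. Over all 47326 genes tested, median-ratio scaling gave 8433 higher and 8064 lower, against 10398 and 6338 without it. Quantile normalization gave 7491 and 9956. The late senescence mean lay within 0.5 log2 units of the full blooming mean in 71 of the 150 genes, more than 1 above it in 17 and more than 1 below it in 32. Of the 19 higher genes, 18 had late senescence as their second stage, which follows from that grouping. Without full blooming replicate 3 the counts were 19 higher and 22 lower, and without late senescence replicate 2 they were 24 higher and 19 lower. Over all genes tested they were 12620 and 5978 without the first library, and 8800 and 5062 without the second.

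The largest rises over full blooming were found in genes whose early senescence libraries differed widely. F01.PB18174 was at 466, 164 and 211 FPKM in late senescence, against 10.6, 12.1 and 12.98 in full blooming (log2 change 4.30 ± 0.63, SE; limma adjusted p of 0.000175). In early senescence it was at 801, 177 and 1779 FPKM, so that replicate 2 of its peak stage lay within the range of late senescence. F01.PB21283 was at 40.5, 4.56 and 27.3 FPKM in late senescence and was listed at 0 in all 3 full blooming libraries (limma adjusted p of 0.000588). In early senescence it was at 53.5, 15.8 and 99.0 FPKM, again lowest in replicate 2 and overlapping late senescence. Of the 19 genes higher in late senescence than at full blooming, 4 had early senescence libraries 1 log2 unit or more apart. Of the 41 genes higher on opening, 0 had. Such a span adds to the spread that the tests used, which makes a call less likely, so nothing is read from these counts.

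Other genes were listed at 0 throughout the stage after the peak. In late senescence 18 of the 150 genes (12%) were listed at 0 in all 3 libraries, against 1.03% of the other 18848 genes with enough expression. In other stages, 6 of the 150 were at 0 in all libraries of buds, 2 in partial blooming and 4 in full blooming. A low late level helps a gene into the list, so the 2 shares are a description. The 18 genes were at 6.86 to 247 FPKM in early senescence, and 9 of them were at 1 FPKM or more in all full blooming libraries. Of the 22 genes that fell between full blooming and late senescence, 8 were listed at 0 in all late libraries. The other 14 had changes of -4.73 to -0.49, with a median of -2.35.

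F01.PB54963 was listed at 0 in all 3 late senescence libraries, against 122, 60.5 and 77.2 FPKM in full blooming (limma adjusted p of 2.52e-09). It was at 26.5, 14.7 and 23.6 FPKM in buds, 60.5, 68.4 and 79.9 in partial blooming, and 230, 286 and 226 in early senescence. F01.PB2014 was likewise listed at 0 in late senescence, against 49.6, 24.7 and 44.8 FPKM in full blooming (limma adjusted p of 5.53e-08), and was at 138, 117 and 108 in early senescence. F01.PB30374 was listed at 0 in late senescence, against 27.8, 27.2 and 29.5 FPKM in buds (limma adjusted p of 1.60e-10). It was at 37.6, 26.4 and 30.4 FPKM in partial blooming, 25.4, 35.7 and 30.9 in full blooming, and 106.3, 107.4 and 105.1 in early senescence. Outside early and late senescence its levels overlapped between stages. No fold is given for these genes, since their late values are 0.

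**Figure D4:**
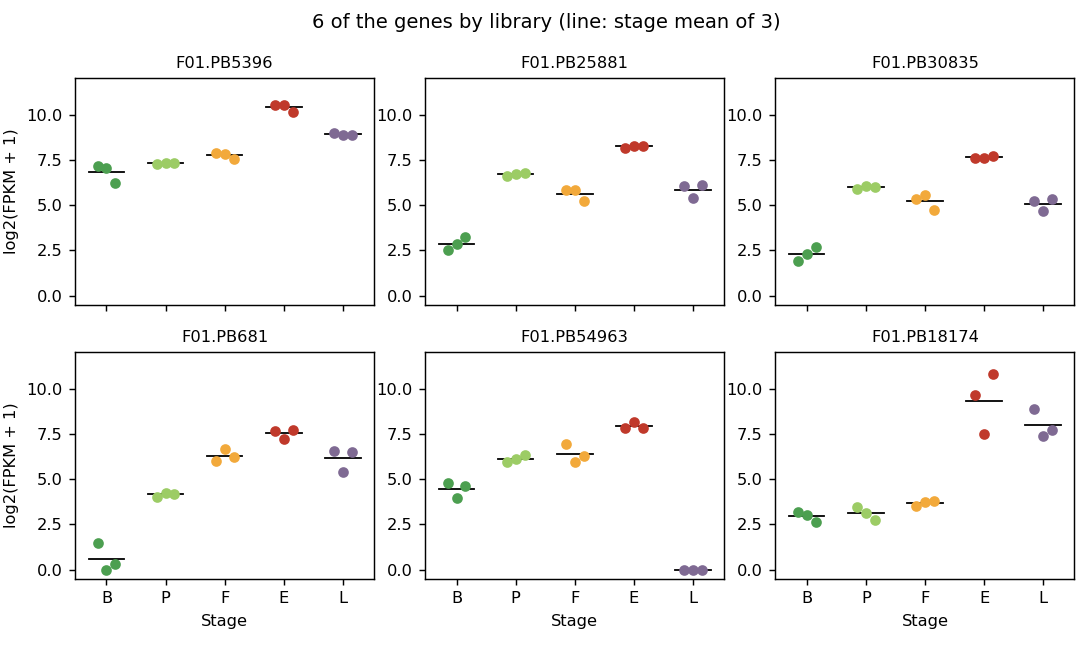
log2(FPKM + 1) of 6 of the 150 genes in all 15 libraries (B buds, P partial blooming, F full blooming, E early senescence, L late senescence; line, stage mean of 3). The stage means of F01.PB25881 and F01.PB30835 have a first maximum in partial blooming. The fall to full blooming was not called in F01.PB30835, and its call in F01.PB25881 was lost in some alternatives. F01.PB681 rises through opening, F01.PB54963 is at 0 in late senescence, and F01.PB18174 spans 177 to 1779 FPKM within early senescence.

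Set against buds, the end of the series was higher in many of the genes. In late senescence against buds, 65 of the 150 genes were higher (43.3%), against 22.0% of all genes tested, and 18 were lower (12%), against 20.4%. Among the genes with enough expression in early senescence, 31.2% were higher and 23.7% lower. The median change was 0.66 over the 150 genes and -0.03 over all genes tested. It shares its libraries with the comparisons on opening and after full blooming, and full against partial blooming shares stages with both as well, so the counts are not separate evidence. Of the 18 lower genes, 15 were also lower than in full blooming and 9 were listed at 0 in all late libraries. Without buds replicate 3, 10 genes were lower, and without late senescence replicate 2, 68 were higher and 13 lower. Over all genes tested, 9112 were lower without buds replicate 3. Without late senescence replicate 2, 9675 were higher and 8129 lower. With all libraries these were 10427 higher and 9664 lower. F01.PB681 was at 92.0, 41.7 and 89.4 FPKM in late senescence, against 1.83, 0 and 0.24 in buds (log2 change 5.55 ± 0.37, SE; limma adjusted p of 1.32e-07). F01.PB18174 was at 466, 164 and 211 FPKM in late senescence, against 8.04, 7.13 and 5.20 in buds (log2 change 5.04 ± 0.63, SE; limma adjusted p of 3.05e-05). F01.PB2014, listed at 0 in late senescence, was at 38.0, 15.2 and 24.3 FPKM in buds (limma adjusted p of 7.45e-08).

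**Figure D5:**
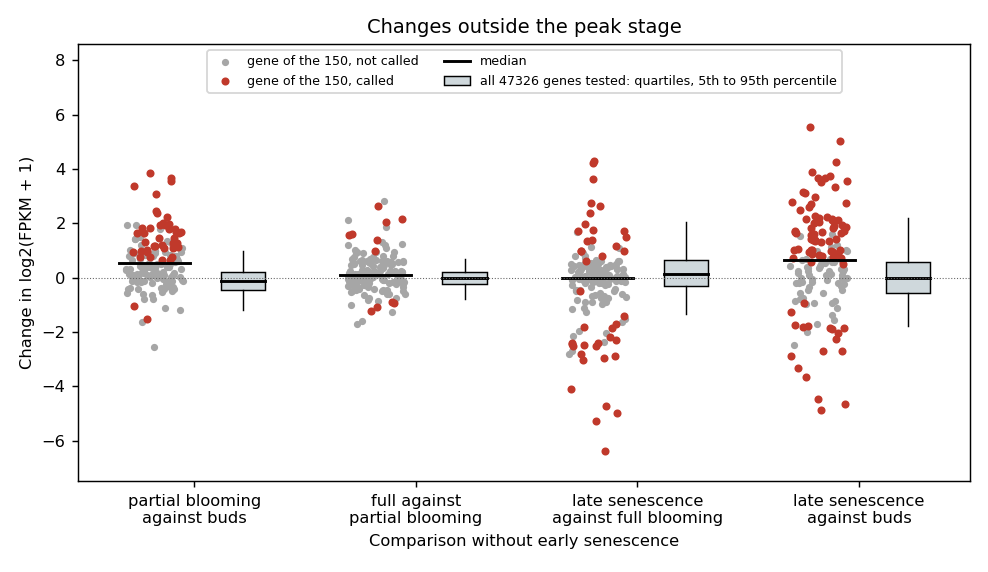
Change in log2(FPKM + 1) in the 4 comparisons without early senescence: points, the 150 genes (red where called by limma at an adjusted p under 0.05), with their median as a line; boxes, quartiles and 5th to 95th percentile of all 47326 genes tested. The median of the 150 genes is 0.52 in partial blooming against buds and 0.66 in late senescence against buds, against -0.13 and -0.03 over all genes, and is 0.00 in late senescence against full blooming.

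Changes on opening and at the end of the series were then set side by side. Partial blooming against buds and late senescence against full blooming share no library. Of the 41 genes higher on opening, 3 were called lower and 2 higher in late senescence against full blooming, and 36 were not called. Of the 22 genes that fell between full blooming and late senescence, 19 were not called on opening. Over the 4 comparisons together, 94 of the 150 genes were called at least once and 56 in none. These joint counts were not made over all genes tested, so nothing particular to the 150 genes is read from them. In late senescence against buds alone, 22.0% of all genes tested were higher and 20.4% lower.

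Within late senescence the libraries held unequal amounts of these transcripts. Among the 119 genes with 3 different late values, late senescence replicate 3 was the highest in 66 (55.5%) and replicate 2 the lowest in 77 (64.7%). In the other genes with enough expression, replicate 3 was the highest in 41.6% and replicate 2 the lowest in 59.2%. The median deviation from the stage mean was 0.23 log2 units in replicate 3 and -0.27 in replicate 2 over these 119 genes, against 0.08 and -0.13 over the others. The correlation of late senescence replicate 3 with the early senescence libraries was 0.85 on average, against 0.82 for replicate 1 and 0.79 for replicate 2. The part of this difference between libraries in the comparisons was not tested further than by leaving each library out.

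The remaining genes named by the rule fall between these courses. F01.PB1102, the highest score with full blooming second, was at 21.2, 24.4 and 22.6 FPKM in early senescence, at 3.61, 3.74 and 2.47 in full blooming and at 2.70, 1.52 and 1.08 in late senescence. No comparison among the other stages was called in it. F01.PB38935, the lowest score with buds second, was at 11.03, 8.79 and 12.5 FPKM in early senescence and at 0.09, 5.31 and 11.5 in full blooming, where replicate 3 lay within the range of early senescence. It was lower in late senescence, at 0.22, 0 and 1.29 FPKM, than in buds, at 5.03, 3.84 and 3.28 (log2 change -1.83 ± 0.64, SE; limma adjusted p of 0.0353). F01.PB33004 was at 24.5, 25.0 and 24.3 FPKM in partial blooming, against 0.95, 3.53 and 2.11 in buds (log2 change 3.08 ± 0.28, SE; limma adjusted p of 1.06e-05), and at 55.9, 59.0 and 61.0 in early senescence.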

How the data were processed

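Gene expression was measured by RNA sequencing of whole tulip flowers at 5 stages with 3 libraries each. The authors deposited 1 table of FPKM values with 2 decimals and 1 column per library; the unit is read from the table's name and values. The tools named in the submitters' processing notes, with no role or order, are DESeq 1.18.0, HTSeq 0.6.1, TopHat2 2.0.12 and Bowtie2 2.2.3. For the reference, annotation and filters, the entry is: not given in the sources used here. Read depth is unknown, which limits precision at low FPKM. No 2 libraries were identical.

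From the FPKM values the 150 genes were chosen as the report states. limma 3.58.1 in R 4.3.3 was fitted on log2(FPKM + 1) over all 15 libraries with a mean-variance trend, on genes with 1 FPKM or more in at least 3 libraries; tests were two-sided with Benjamini-Hochberg adjustment over all genes tested. Fold changes on this scale understate the change of low genes. The fit was tested on simulated data. Descriptions were computed in Python 3.11.15 with pandas 2.3.3.

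The members, tests and alternatives were chosen with earlier results of these data known. Named genes are the 2 highest scores, the 2 highest levels, the 2 on each side of the limit, the 2 largest called rises and falls without overlap in each comparison, and the highest and lowest score for each second stage. No gene list could be matched to identifiers without names. Alternatives were another pseudocount, other filters and scalings, a replicate block, fits on 2 stages, library weights, no trend, other rules for the set, and leaving out each library.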

Additional observations from a re-analysis of the deposited data

How the results depend on the processing

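Values were recomputed 622 times; 566 held their call, lay within 1.5 times for counts, or moved by less than the spread between libraries. The other 56 did not. A reversal was defined only for the named log2 changes and the left-out scores, and none of these reversed. Counts had no such label. In late senescence against full blooming, 19 higher and 22 lower became 24 and 19 without late senescence replicate 2. Over all genes tested, 10398 higher and 6338 lower became 8800 and 5062. The causes of the shifts were not tested, except that a higher minimum admits fewer of the same genes by construction. Applied again, the rule kept 135 of the 150 genes with a pseudocount of 0.1, 139 with median-ratio scaling, 137 with quantile normalization, 138 with no minimum, 126 with stage medians, 96 with a minimum of 20 FPKM, and 120 to 147 when a library was left out, fewest without early senescence replicate 2. The median score in the left-out early senescence replicates 1, 2 and 3 was 1.66, 1.68 and 1.59 with a pseudocount of 0.1, 1.69, 1.65 and 1.51 with median-ratio scaling, and for replicate 3 it was 1.48 with quantile normalization. The share of summed FPKM in early senescence was 1.56% with median-ratio scaling and 1.28% to 1.69% with a library left out and the genes chosen again.

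When a library was left out, genes higher and lower numbered 29 to 44 and 1 to 3 in partial blooming against buds, 2 to 14 and 1 to 5 in full against partial blooming, 16 to 24 and 18 to 24 in late senescence against full blooming, and 58 to 68 and 10 to 19 in late senescence against buds. The 1 lower gene on opening was found without partial blooming replicate 1, and the 10 lower genes against buds without buds replicate 3. In full against partial blooming, higher genes numbered 4 without partial blooming replicate 3, 2 without full blooming replicate 2, 14 without full blooming replicate 3 and 11 without late senescence replicate 2. Over all genes tested in this comparison, 255, 190, 1113 and 579 were then higher in the same order, against 464. Lower genes of the 150 there numbered 1 without each partial blooming library in turn and without full blooming replicate 2, and 2 without full blooming replicate 1 and early senescence replicates 1 and 2. Over all genes tested, lower ones then numbered 130 to 273, against 331. The same comparison had 2 lower genes with no filter and 0 with median-ratio scaling (11 at an unadjusted p under 0.05). Fitted on its 2 stages alone it had 2 higher and 0 lower genes by limma (10 lower at an unadjusted p under 0.05). That fit gave 42 higher and 33 lower over all genes tested, against 464 and 331 in the fit on all stages. With library quality weights the comparison had 26 and 13 of the 150 genes. Over all genes tested, the weights gave 2600 higher and 4495 lower there, against 464 and 331 without them. These weights also gave 30 higher genes in late senescence against full blooming. Over all genes tested, 14989 were then higher, against 10398 without weights.

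The labels do not say that replicate numbers pair the libraries, and not every pair of same-numbered libraries deviated together (correlations of -0.23 to 0.37 across genes). With a replicate block, 1 gene was lower in full against partial blooming, and no other count of calls moved by over 1.5 times. Among 16 named log2 changes each direction held in all alternatives, and 18 of 384 recomputed values lost the call, all for F01.PB25881, F01.PB681 and F01.PB20833 in full against partial blooming and F01.PB33581 on opening. Depth is unknown, so no difference near 0 FPKM can be set against counting error.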

Other observations

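Among the 150 genes, 57 were at 1 FPKM or more in all 15 libraries, and some of the 1596 pairs among them ran nearly parallel. The pairs were looked for after the values were seen, and stages are shared by all genes, so this is a description. The ratio of F01.PB30835 to F01.PB25881 stayed between 0.566 and 0.832 in all 15 libraries, with an SD of 0.15 on the log2 scale, against a median SD of 0.92 over all pairs. F01.PB30393 stood at 26.9 to 39.0 times F01.PB75282, with an SD of 0.16. The table does not say whether such identifiers are copies, transcripts of 1 gene or separate genes.

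Of the 24 genes whose early senescence libraries spanned 1 log2 unit or more, 7 had replicate 3 highest and replicate 2 lowest. F01.PB18174, F01.PB21283 and F01.PB4218 were among them, the last at 28.5, 11.2 and 109.2 FPKM in early senescence replicates 1, 2 and 3. The other 17 were spread over the remaining orders, with replicate 1 highest and replicate 3 lowest in 6. Among the other 1533 genes with such a span, replicate 3 was highest and replicate 2 lowest in 23.0%, and the difference between the 2 sets was not tested.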
